A study of Homo sapiens with 6 samples.

Results

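FAS and TRAIL are the best known death signals of the tumour necrosis factor family. The group described here holds 8 genes: the ligand genes FASLG and TNFSF10 (TRAIL), the receptor genes FAS, TNFRSF10A, TNFRSF10B, TNFRSF10C and TNFRSF10D, and CFLAR, which encodes the inhibitor c-FLIP. They were chosen by name from 18701 genes with probe sets of their own. A gene's value on an array was the median log2 signal of the probe sets that carry only its symbol. Of the 8 genes, 7 passed the filter on dim genes and were among the 14025 tested. FASLG did not.

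The arrays were Affymetrix Gene 1.0 ST arrays of total RNA from HT29-tsp53 cells, a human colorectal adenocarcinoma line that expresses a murine V135A p53 transgene in every group. This p53 is temperature sensitive, and the series asks how the p53 response is reversed and what part mRNA decay plays. The control group (p53 off) was kept at 38 °C, the restrictive temperature, with 37 °C named in other fields. The second group (p53 on) spent 16 h at 32 °C. The third group (p53 on then off) spent 16 h at 32 °C and then 6 h of recovery, which most fields place at the restrictive temperature and 1 field at 32 °C. Each group had 2 arrays, 1 from experiment 1 and 1 from experiment 2. The labels do not name the promoter of the transgene or the number of clones, and a shift of temperature and a change of p53 activity cannot be told apart in this design.

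As background, FAS and the TRAIL receptors TNFRSF10A (DR4) and TNFRSF10B (DR5) carry a death domain inside the cell. When a ligand clusters them, the adaptor FADD brings in caspase-8, which starts apoptosis either directly or through BID and the mitochondria. TNFRSF10C (DcR1) and TNFRSF10D (DcR2) bind TRAIL without a working death domain and are called decoy receptors. c-FLIP resembles caspase-8 but lacks its activity, and competes for the same complex. FAS and TNFRSF10B are long known p53 targets, and the p53 element described for FAS lies in its first intron.

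Known p53 targets followed the labels. CDKN1A, which encodes the cell cycle inhibitor p21, rose by 3.21 ± 0.22 log2 units in p53 on and fell by 3.26 after recovery. MDM2, the p53 ubiquitin ligase, rose by 3.52 and fell by 3.44, and GDF15, a stress cytokine, rose by 3.04 and fell by 3.10. When each of the 6 arrays was left out in turn, these rises stayed called in 4, 5 and 4 fits and the falls in 2, 2 and 0, the rises being lost without a control array and the falls of CDKN1A and MDM2 without a control or recovery array. With only the 2 groups compared in the fit, which here equals leaving out a control array, the 3 falls missed the threshold (limma adjusted p = 0.0503). Epithelial markers averaged log2 8.33 to 8.82 on the 6 arrays over 10 genes. Fibroblast markers averaged 3.73 to 3.92 over 7 genes, and leukocyte markers 4.36 to 4.44 over 10 genes. The leukocyte gene PTPRC stood between 1.39 and 2.05, and CD3E, CD3D, CD2, MS4A1, GNLY, DCN and LUM were also under the dim filter by mean signal. Above the filter were 4 of the 10 leukocyte genes, LYZ at 10.81 to 11.52, CD68 at 5.72 to 6.65, NKG7 at 4.73 to 6.01 and CD14 at 4.70 to 5.70, and 5 of the 7 fibroblast genes, of which COL1A1 was highest at 5.26 to 5.89. Gut epithelium also expresses LYZ. The part of such cells in the results was not tested. In limma, 10 epithelial, 5 fibroblast and 4 leukocyte genes of these 3 lists were tested. Without a term for the experiment 0 were called, where at most 0.898% of all genes were called in either direction. With that term, the epithelial gene CEACAM5 was lower than control in p53 on and after recovery, as were 6.28% and 0.392% of all genes. With that term and no filter on dim genes neither difference passed (limma adjusted p = 0.0745 and 0.129).

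The upstream sequences of the most changed receptor and ligand, FAS and TNFSF10, are shown because both genes rose and fell together. Such sequence, from RefSeq (GRCh38.p14), was examined for 4 of the 8 genes, FAS, FASLG, TNFSF10 and CFLAR. The TNFRSF10 genes were not examined in this way. Each run below is the 250 bases before a RefSeq start, 5′ to 3′ along the gene's strand. Capitals mark letters that match the p53 half-site decamer, GGGCGG or TATAAA on either strand. The first FAS run (chr10:88990548-88990797, plus strand) precedes the most upstream of its 3 listed starts. The other FAS run (chr10:88991181-88991430, plus strand) precedes the most downstream one. The TNFSF10 run (chr3:172523431-172523680, minus strand) precedes its only listed start.
FAS upstream start: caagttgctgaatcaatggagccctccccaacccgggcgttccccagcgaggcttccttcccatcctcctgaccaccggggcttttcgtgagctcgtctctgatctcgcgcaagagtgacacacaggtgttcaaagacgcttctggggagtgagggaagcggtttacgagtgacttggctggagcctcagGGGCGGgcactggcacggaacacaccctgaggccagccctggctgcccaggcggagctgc
FAS downstream start: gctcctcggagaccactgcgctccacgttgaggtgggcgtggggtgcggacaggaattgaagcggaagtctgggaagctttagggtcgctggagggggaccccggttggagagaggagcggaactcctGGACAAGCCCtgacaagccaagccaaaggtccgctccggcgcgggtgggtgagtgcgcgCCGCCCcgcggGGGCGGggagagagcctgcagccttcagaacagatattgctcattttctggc
TNFSF10: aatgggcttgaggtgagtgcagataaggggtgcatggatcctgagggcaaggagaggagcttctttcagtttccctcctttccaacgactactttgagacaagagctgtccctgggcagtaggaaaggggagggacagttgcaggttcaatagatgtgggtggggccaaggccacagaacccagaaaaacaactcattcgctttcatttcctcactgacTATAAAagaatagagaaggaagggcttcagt

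The window before the downstream FAS start held 1 match to the p53 half-site decamer, GGACAAGCCC. The letters right after it, tgacaagcca, missed the decamer pattern only at the first and last letter. This window lies downstream of the other listed FAS starts, and the p53 element described for FAS is intronic. Whether the match is part of that element was not tested. The window also held 2 matches to GGGCGG. Among 35116 upstream windows of the same length, 5.57% held a half-site match, 42.6% held GGGCGG and 10.7% held TATAAA. The upstream FAS window held GGGCGG once and no half-site match. The TNFSF10 window held TATAAA once and neither of the other motifs. The windows before the middle FAS start, the FASLG start and the 4 CFLAR starts held 0 half-site matches. The FAS match was thus the only one in all windows examined. These are matches of letters in short windows, and no binding was measured.

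TNFSF10 encodes TRAIL, the ligand of the TNFRSF10 receptors. Its log2 signal was 4.27 and 3.36 in p53 off (experiments 1 and 2), 6.68 and 6.47 in p53 on, and 3.81 and 3.44 in p53 on then off. Both p53 on arrays lay above all 4 others, and the control and recovery arrays overlapped. In a bulk culture, more RNA per cell and more cells that express the gene cannot be told apart. TNFSF10 rose by 2.76 ± 0.33 log2 units in p53 on, or 6.78-fold (standard error, n = 2 arrays per group, limma with Benjamini-Hochberg adjustment over all genes, adjusted p = 0.0200). The rise was 2.41 in experiment 1 and 3.11 in experiment 2. Recovery lowered it by 2.95 ± 0.33, or 7.75-fold (adjusted p = 0.0245). Against control, recovery differed by -0.19 ± 0.33 (adjusted p = 0.999), with -0.46 and 0.08 in the experiments. The lower levels were near the dim filter of log2 3.62, and the experiment 2 values of control and recovery were under it.

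FASLG encodes the FAS ligand, best known from cytotoxic lymphocytes. Its log2 signal was 3.97 and 1.89 in p53 off, 3.63 and 3.36 in p53 on, and 2.62 and 2.64 in p53 on then off. The control arrays lay on both sides of all others, and the experiments moved in opposite directions in p53 on, by -0.33 and 1.47. Only 3 of its 8 probe sets had a mean above the level that the lowest 25% of all probe sets lie under, log2 3.45. Those 3 differed between p53 on and off by -0.12 to 0.16. FASLG was not tested over the filtered genes, and with no filter its adjusted p was 0.779 in limma for p53 on against off and 0.720 for recovery against p53 on.

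FAS, the receptor of FASLG, had the largest rise of the 8 genes. Its log2 signal was 5.01 and 4.51 in p53 off, 8.26 and 7.86 in p53 on, and 5.35 and 5.04 in p53 on then off. The p53 on arrays lay far above the others, and both recovery arrays lay above both control arrays. FAS rose by 3.30 ± 0.27, or 9.85-fold (limma adjusted p = 0.00454), with 3.25 and 3.35 in the experiments. It fell by 2.86 ± 0.27 in recovery, or 7.28-fold (limma adjusted p = 0.0160), with -2.91 and -2.82 in the experiments. After recovery FAS was 0.35 and 0.53 above the control of the same experiment, so that 10.6% and 15.8% of the log2 rise was left. That difference of 0.44 ± 0.27 did not pass the test (limma adjusted p = 0.996, or 0.327 with the experiment as a block). It was 0.14 with dim probe sets left out, 0.27 with the mean of probe sets in place of the median, and 0.19 to 0.69 with 1 array left out, the lowest without control array 2 and the highest without control array 1.

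**Figure D1:**
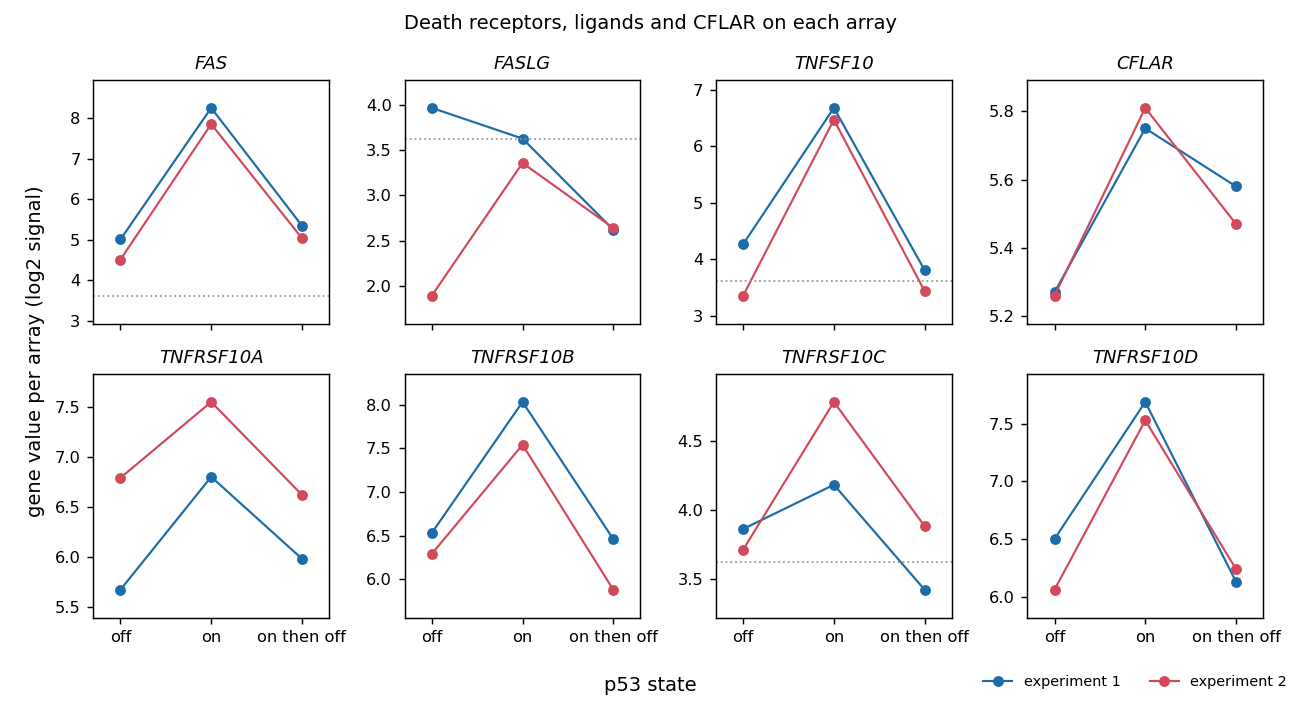
Log2 signal of each gene (vertical axis, its own scale in each panel) in the 3 p53 states, with a line joining the arrays of experiment 1 (blue) or experiment 2 (red); the dotted line is the dim filter at log2 3.62, drawn where values come near it. In 7 genes both experiments peak in p53 on, while FASLG follows a different course in each.

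TNFRSF10B, the death receptor DR5, moved in the same pattern with a smaller size. On the log2 scale it gave 6.53 and 6.29 in p53 off, 8.03 and 7.54 in p53 on, and 6.46 and 5.88 in p53 on then off. Both p53 on arrays lay above all others. The difference of p53 on from off was 1.37 ± 0.28, or 2.59-fold, which missed the threshold without the block (limma adjusted p = 0.0766) and passed with it (adjusted p = 0.00294). It also passed without the block when the mean of probe sets replaced the median (1.31, adjusted p = 0.0401). Recovery differed from p53 on by -1.61 ± 0.28 (limma adjusted p = 0.0810, or 0.00247 with the block). Recovery differed from control by -0.06 in experiment 1 and -0.41 in experiment 2 (limma adjusted p = 0.999).

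TNFRSF10A, the death receptor DR4, had the widest spread of the 7 tested genes, with a standard error of 0.44. Its log2 signal was 5.67 and 6.79 in p53 off, 6.80 and 7.55 in p53 on, and 5.98 and 6.62 in p53 on then off. The p53 on array of experiment 1 was level with the control of experiment 2, so the groups separated clearly only within an experiment. P53 on was higher by 1.13 and 0.76 in the experiments, or 0.95 ± 0.44 (limma adjusted p = 0.374, or 0.0156 with the block), and by 0.39 to 1.51 with 1 array left out. Recovery against p53 on was -0.82 and -0.93, or -0.88 ± 0.44 (limma adjusted p = 0.5, or 0.0292 with the block), and -1.25 to -0.50 with 1 array left out. With no filter on dim genes the block no longer called it (adjusted p = 0.0725). Recovery against control was 0.31 and -0.17.

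TNFRSF10D, the decoy receptor DcR2, was close to TNFRSF10B in the size of its differences. The arrays gave log2 6.50 and 6.06 in p53 off, 7.69 and 7.53 in p53 on, and 6.13 and 6.24 in p53 on then off. Both p53 on arrays lay above all others, and the recovery arrays lay between the control arrays. TNFRSF10D rose by 1.33 ± 0.23, or 2.51-fold (limma adjusted p = 0.0494, or 0.00457 with the block). Without the block the call was lost with no filter on dim genes (adjusted p = 0.0634) and with only the 2 groups fitted (0.0997). Recovery differed from p53 on by -1.42 ± 0.23, which missed the threshold (limma adjusted p = 0.0697) and passed with the block (0.00589) or with the mean of probe sets (-1.44, adjusted p = 0.0161). Recovery against control was -0.37 and 0.19 in the experiments.

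TNFRSF10C, the decoy receptor DcR1, gave signals close to the dim filter. Its log2 signal was 3.86 and 3.71 in p53 off, 4.18 and 4.78 in p53 on, and 3.42 and 3.88 in p53 on then off. The p53 on arrays were again the 2 highest, but by 0.32 over control in experiment 1 and 1.08 in experiment 2. The difference of 0.70 ± 0.28 did not pass (limma adjusted p = 0.296, or 0.0735 with the block). Nor did the -0.83 ± 0.28 of recovery against p53 on (limma adjusted p = 0.277, or 0.0542 with the block). With 1 array left out these differences ranged from 0.39 to 1.00 and from -1.13 to -0.53, and the mean of probe sets gave -0.50 for the second.

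CFLAR, the c-FLIP gene, had the smallest differences of the tested genes in both comparisons with p53 on, by the median of probe sets. Its log2 signals were 5.27 and 5.26 in p53 off, 5.75 and 5.81 in p53 on, and 5.58 and 5.47 in p53 on then off. The 3 groups did not overlap, with recovery between the others. P53 on was higher by 0.48 and 0.55, or 0.52 ± 0.19 on average (limma adjusted p = 0.253, or 0.0869 with the block). Recovery differed from p53 on by -0.17 and -0.34, or -0.25 ± 0.19 (limma adjusted p = 0.695, or 0.431 with the block), and by -0.54 with dim probe sets left out. Of the log2 difference seen in p53 on, 64.1% was left in experiment 1 and 38.9% in experiment 2. With dim probe sets left out, the rise of CFLAR in p53 on was 0.70, above the 0.48 of TNFRSF10C. With the mean of probe sets these rises were 0.63 and 0.60.

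**Figure D2:**
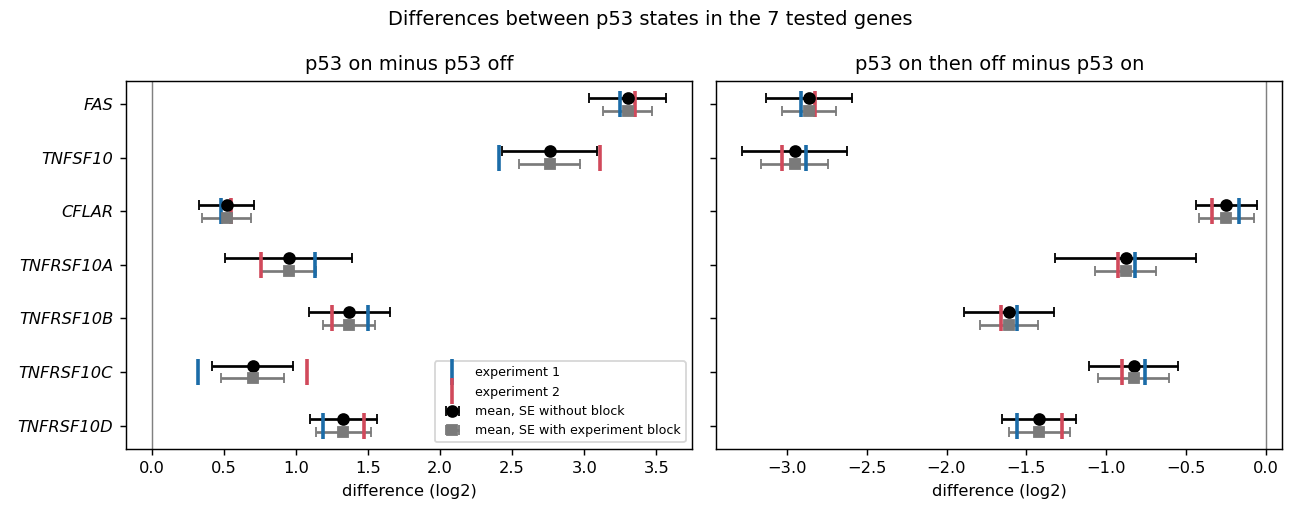
Log2 differences (horizontal axis) of the 7 tested genes between p53 on and off (left) and between recovery and p53 on (right); points are the means with standard errors from limma without (black) and with (grey) the experiment as a block, and ticks are the single experiments. FAS and TNFSF10 lie near 3 on the left and -3 on the right, the other receptors between 0.70 and 1.37 on the left, and CFLAR nearest 0.

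Of the 7 tested genes, 3 were called higher in p53 on (FAS, TNFSF10 and TNFRSF10D), where 0.898% of all tested genes were. With the experiment as a block 5 of 7 were called, adding TNFRSF10A and TNFRSF10B, where 5.18% of all genes were. In recovery against p53 on, FAS and TNFSF10 were called lower, 2 of 7, where 0.285% of all genes were. With the block 5 of 7 were called lower, where 3.39% were. The median difference over the 7 genes was 1.33 in p53 on and -1.42 in recovery, where the median over all tested genes was 0.02 in both. These 2 comparisons share the p53 on arrays. All 7 had both p53 on arrays above both control arrays, as did 22.6% of all tested genes. All 7 also had both recovery arrays below both p53 on arrays, as did 18.3% of all. FAS and CFLAR had both recovery arrays above both control arrays, 2 of 7, as did 20.4% of all. Recovery against control called 0 of 7 in limma without or with the block, with 0 and 1 at an unadjusted p under 0.05. At that unadjusted level stood 746 and 1821 of all 14025 tested genes. In that comparison 0.0285% of all genes were called higher and 0% lower, or 0.207% and 0.392% with the block.

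The calls rested on few arrays. The fits that left out an array or a group had no term for the experiment, so they did not use the pairing. Leaving out each of the 6 arrays in turn, the rise of FAS stayed called in 4 fits, with adjusted p = 0.0531 without control array 1 and 0.0649 without control array 2. The rise of TNFSF10 stayed called in 2 fits, and was lost without control array 1 (adjusted p = 0.0588) or 2 (0.114) and without p53 on array 1 (0.0963) or 2 (0.0692). The rise of TNFRSF10D stayed called in 0 of 6, with adjusted p from 0.0997 to 0.284. The falls of FAS and TNFSF10 stayed called in 0 of 6, with adjusted p between 0.0503 and 0.195 for FAS and between 0.0503 and 0.204 for TNFSF10. Both falls missed the threshold when only the 2 groups compared were fitted (limma adjusted p = 0.0503). For these falls that fit equals the one without a control array, so it is not a separate check. The differences themselves kept their sign, with FAS between 2.91 and 3.55 in p53 on over all 13 alternatives and TNFSF10 between 2.31 and 3.22.

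Each gene was read by several probe sets, which allows a view within the gene. They read the same RNA on the same arrays, so they are not independent measurements. At gene level, 4691 of the 14025 tested genes were higher in p53 on than in control in both experiments. In recovery 4408 were lower than in p53 on in both. The share over all probe sets was not computed. All 14 FAS probe sets were higher in p53 on in both experiments, by 1.96 to 4.93 log2 units. In recovery 13 of the 14 were lower than in p53 on in both experiments. All 7 TNFSF10 probe sets were higher in both experiments, 6 of them by 1.70 to 3.36. The remaining one, which was the brightest, differed by 0.37 in p53 on and by -0.29 in recovery. For TNFRSF10B, 14 of 15 were higher in p53 on in both experiments and 15 of 15 lower in recovery. For TNFRSF10D all 12 were higher and all 12 were then lower in both experiments.

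The remaining genes were less even. For TNFRSF10A, 9 of 11 probe sets were higher in p53 on in both experiments and 1 was lower in both, with a mean difference of -0.63. For TNFRSF10C, 5 of 8 were higher in both, and its brightest probe set, at a mean level of 7.31, differed by 0.04. The probe sets of CFLAR differed by brightness. Its 8 brighter ones differed by 0.54 to 1.23 in p53 on with a median of 0.86, and its 9 dimmer ones by -0.42 to 1.24 with a median of 0.36, a split made after the values were seen. In recovery against p53 on the brighter and dimmer ones had medians of -0.60 and -0.24. Split the same way, the FAS probe sets had medians of 3.16 and 3.33 in p53 on, and those of TNFRSF10B 1.41 in both parts. Brightness also depends on how well each probe binds. Which exon or isoform a probe set reads, and whether probe sets of related TNFRSF10 genes cross-hybridise, was not tested.

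**Figure D3:**
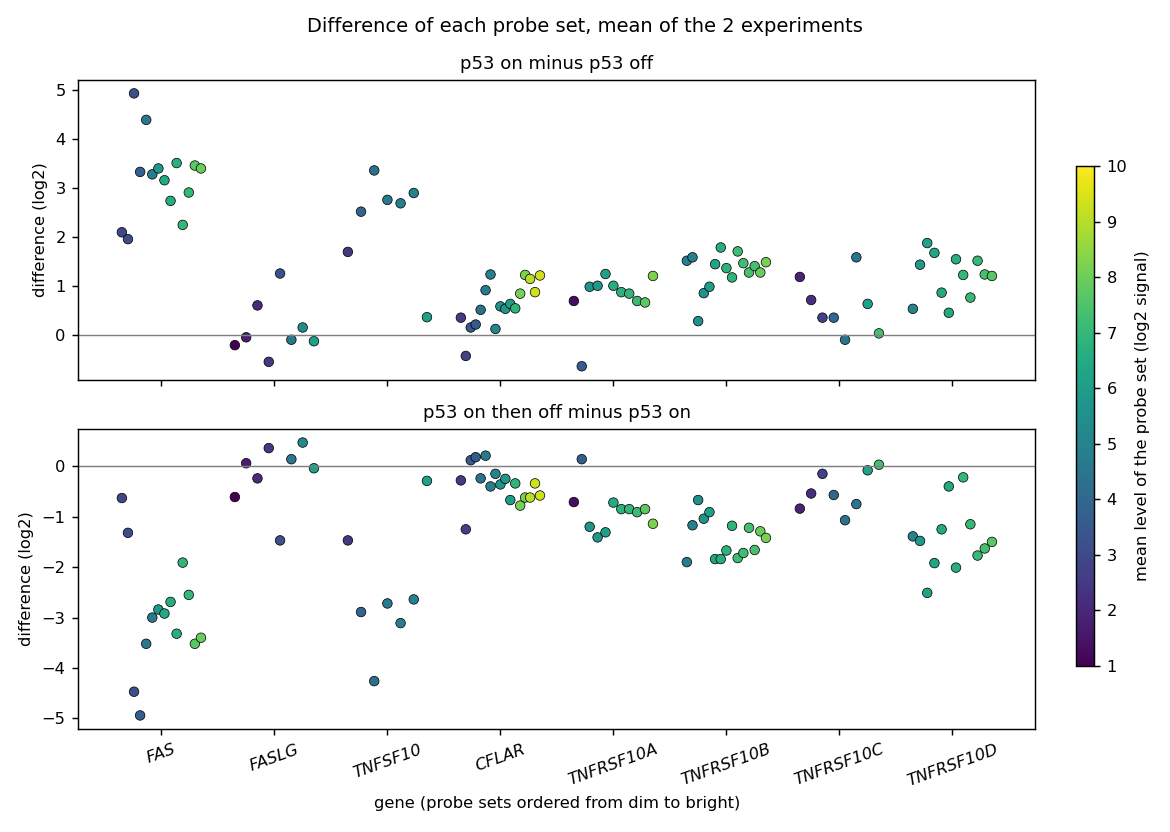
Log2 difference of each probe set (vertical axis, mean of both experiments) between p53 on and off (top) and between recovery and p53 on (bottom), grouped by gene, ordered from dim to bright and coloured by mean log2 signal. FAS and most TNFSF10 probe sets lie well above 0 on top and below it at the bottom, and FASLG probe sets scatter about 0. The 8 brighter CFLAR probe sets lie between 0.54 and 1.23 on top.

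The 6-array profiles were compared by the root mean square distance between genes, each centred on its own mean. MDM2 was nearest to FAS (0.268 log2 units), followed by PRDM1, a transcriptional repressor (0.280), the growth arrest gene GADD45A (0.285), CDKN1A (0.290) and ZMAT3 (0.292). BTG2, an antiproliferative gene, was nearest to TNFSF10 (0.248), and FAS itself came next (0.307), before PRDM1, CDKN1A and C12orf5 (TIGAR). Nearest to TNFRSF10B were PNRC1 (0.127), the kinase gene PLK3 (0.164), TGS1, FBXO32 and EFNB1. Among the 7 tested genes of the group TNFRSF10B and TNFRSF10D were the closest pair (0.245), and FAS and CFLAR the farthest apart (1.29). These distances describe 6 arrays that share the same shifts.

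The same fits were read for genes acting below and beside the receptors. Of 61 listed genes outside the 8, 58 had probe sets of their own and 52 were tested. In p53 on 3 of the 52 rose and 1 fell, where 0.898% of all genes rose and 0.585% fell. With the block 6 rose and 3 fell, where 5.18% and 6.28% of all genes did. In recovery against p53 on 1 rose and 2 fell, where 0.143% and 0.285% of all genes did. With the block 4 rose and 4 fell, where 3.84% and 3.39% did. The medians of the 52 were 0.11 in both comparisons. In recovery against control, limma called 0 of 52 without or with the block, with 3 and 10 at an unadjusted p under 0.05. Of all 14025 tested genes, 746 and 1821 were under that unadjusted level.

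Among 10 tested adaptors and initiator caspases, PIDD1 (LRDD on the array), a death domain protein that can activate caspase-2, was the only call without the block. Its log2 signal was 5.57 and 5.49 in p53 off, 7.51 and 7.37 in p53 on, and 5.97 and 5.88 in p53 on then off. PIDD1 rose by 1.91 ± 0.19 (limma adjusted p = 0.0110) and fell by 1.52 (adjusted p = 0.0351). Its recovery arrays lay 0.40 and 0.39 above control, which did not pass (limma adjusted p = 0.963, or 0.363 with the block). FADD, the adaptor shared by FAS and the TRAIL receptors, stood at 8.47 and 7.90, then 7.94 and 7.49, then 8.56 and 8.04. CASP8, the initiator caspase, stood at 6.08 and 5.79, then 6.44 and 5.66, then 6.27 and 6.18. Neither passed in any comparison, with or without the block. With the block only, DAXX was lower in p53 on (-0.61), and TRADD (0.70) and CASP2 (0.81) were higher in recovery than in p53 on.

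Of 9 tested genes of the effector and mitochondrial arm, BAX, which permeabilises the mitochondrial membrane, rose by 1.35 ± 0.24 (limma adjusted p = 0.0494). It stood at log2 7.64 and 7.24, then 8.93 and 8.65, then 7.75 and 7.50. Its difference in recovery (-1.16) missed the threshold (limma adjusted p = 0.106) and passed with the block (0.00731) or with the mean of probe sets (-0.96, adjusted p = 0.0455). CASP6, an effector caspase, was higher in p53 on with the block only (0.71), and APAF1, the apoptosome scaffold, was lower in recovery than in p53 on with the block only (-1.03). BID, the link from caspase-8 to the mitochondria, gave 6.80 and 6.26, then 6.98 and 6.19, then 6.92 and 6.17, and did not pass in any comparison.

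Without the block 0 of 12 tested inhibitors were called in limma. With it BCL2L1, which encodes BCL-XL, was higher in p53 on (0.71, adjusted p = 0.0292), and PTPN13, a phosphatase that binds FAS, was lower (-1.12, adjusted p = 0.0229). TNFAIP3, the A20 ubiquitin-editing enzyme, was higher in recovery than in p53 on with the block only (0.95, adjusted p = 0.0151), and by 0.31 with the mean of probe sets and no block (adjusted p = 0.466).

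TNFRSF14, the receptor HVEM, was the only call among 17 other receptors and ligands of the family. It stood at log2 5.32 and 5.32, then 6.81 and 6.96, then 5.48 and 5.52. It rose by 1.56 ± 0.19 (limma adjusted p = 0.0200) and fell by 1.38 (adjusted p = 0.0438). TNFRSF1A, the main receptor of tumour necrosis factor, differed by -0.32 in p53 on and by 0.32 in recovery, and neither passed with or without the block.

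Among 4 necroptosis genes MLKL, the pore-forming effector, went the other way from FAS. It stood at log2 6.60 and 6.94 in p53 off, 5.52 and 5.32 in p53 on, and 7.06 and 6.89 in p53 on then off. MLKL fell by 1.35 ± 0.22 (limma adjusted p = 0.0438) and rose by 1.55 in recovery (adjusted p = 0.0479). RIPK3, the kinase that activates MLKL, stood at 4.89 and 4.68, then 5.77 and 5.74, then 5.65 and 5.78. Its difference in p53 on (0.97) passed with the block only (limma adjusted p = 0.0753, or 0.0115 with it), and recovery differed from p53 on by -0.04 (adjusted p = 0.985). Recovery was still 0.93 above control (adjusted p = 0.603, or 0.0678 with the block).

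The alternatives for these pathway genes were added after seeing the data. The fits with an array or a group left out had no term for the experiment. With each array left out in turn, the rise of PIDD1 stayed called in 3 of 6 fits, and was lost without either control array or p53 on array 1 (adjusted p up to 0.134). The other 6 pathway calls made without the block stayed called in 0 of 6, with adjusted p between 0.0561 and 0.316, and all kept their direction. With no filter on dim genes BAX (adjusted p = 0.0648), both calls of MLKL (0.0570 and 0.0653) and the fall of TNFRSF14 (0.0631) missed the threshold. With only the 2 groups compared in the fit, the rise of PIDD1 alone of these 7 calls passed. With dim probe sets left out, the rise of BAX (0.0540) and the fall of TNFRSF14 (0.0543) missed it. Of the calls made with the block only, those of DAXX, CASP6, BCL2L1, PTPN13, TRADD, CASP2 and APAF1 were lost with no filter on dim genes (adjusted p from 0.0581 to 0.0988). With 1 array left out the difference of CASP6 ranged from 0.41 to 1.02, that of CASP2 from 0.39 to 1.24 and that of PTPN13 from -1.49 to -0.74, and the mean of probe sets gave 0.44 for TRADD.

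**Figure D4:**
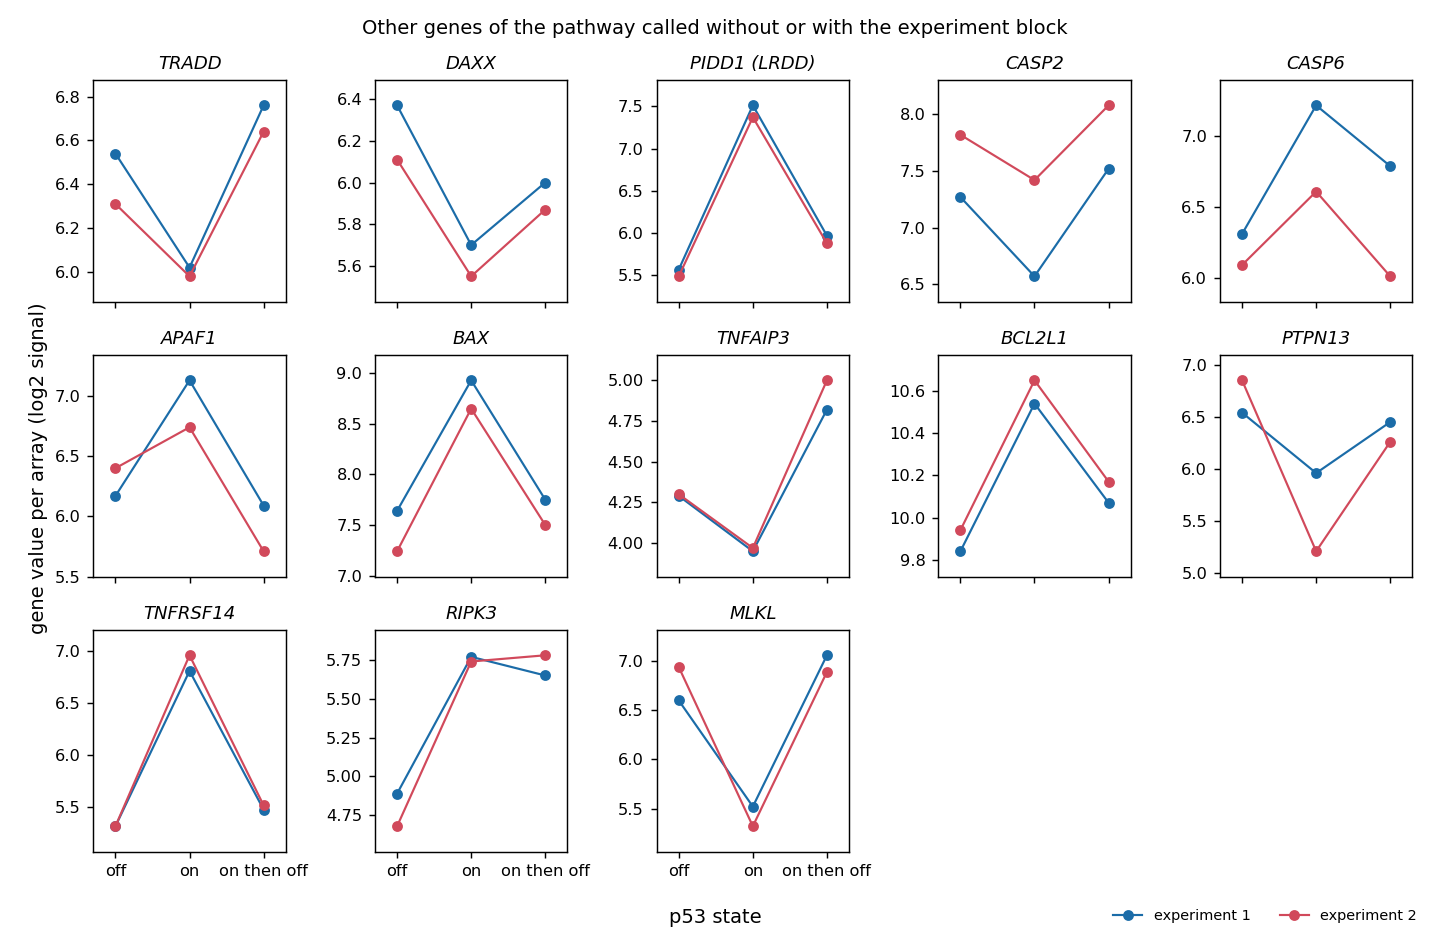
Log2 signal (vertical axis, its own scale in each panel) in the 3 p53 states for the 13 other pathway genes called in at least 1 comparison, with or without the experiment as a block; blue is experiment 1 and red experiment 2. PIDD1, BAX and TNFRSF14 peak in p53 on, MLKL dips there, and RIPK3 stays high in recovery.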

How the data were processed

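RNA of 6 samples was measured on arrays, 2 in each of 3 groups. The authors deposited log2 signals per exon-level probe set, from -0.85 to 13.14. The log base is judged from that range, since natural logs so high would pass a 16-bit scanner. The program and normalization behind them are not given in the sources. Column medians lay between 5.24 and 5.31, so nothing was rescaled. Precision is limited by the number of arrays, which carry no depth.

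Of 257430 probe sets, 224320 carried a single symbol in the platform annotation and gave gene values. Genes in the lowest 25% by mean signal were left out. The 3 groups were fitted over all 6 arrays with limma 3.58.1 (R 4.3.3), adjusted by Benjamini-Hochberg over 14025 genes and called at an adjusted p under 0.05, and the fit was tested on simulated data. An exact permutation test of 2 arrays against 2 cannot go below p = 0.333. The labels' experiment number pairs the arrays: same-numbered arrays deviated together (correlations across genes of 0.496, 0.551 and 0.63). A fit with it as a block is printed where it changes a call. Beyond that number, nothing says that samples of a group were separate cultures, so p-values measure the spread between them, which may be technical. Named genes are the 8, 3 check genes, other pathway genes called with or without the block, and the 5 profiles nearest to FAS, TNFSF10 and TNFRSF10B; FADD, CASP8, BID and TNFRSF1A were added after their values were seen. The genes and lists were chosen with earlier results of these data known.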

Additional observations from a re-analysis of the deposited data

How the results depend on the processing

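The number of genes called over the whole array moved with the processing. With the experiment as a replicate block it was 1607 for p53 on against off (208 without), 1015 for recovery against p53 on (60 without) and 84 for recovery against control (4 without). With the mean of probe sets it was 478 and 182 for the comparisons with p53 on. It was 113 for p53 on against off with no filter on dim genes, and 50 and 0 for the comparisons with p53 on when only the 2 groups compared were fitted. Leaving out 1 array gave 3 to 50, 0 to 4, and 1 to 3 calls in the 3 comparisons. Of the 7 tested genes, the replicate block called 5 in p53 on and 5 in recovery against p53 on. Leaving out 1 array called 0 to 2 and 0 to 0, and fitting 2 groups called 0 in recovery against p53 on. The block changed no other call of the 7. Signs were kept in 16 of 21 differences. The others, all of recovery against control and not past the threshold, turned for TNFRSF10A (-0.11) and TNFRSF10C (0.10) with the mean of probe sets. They turned for TNFSF10 (0.26), TNFRSF10A (-0.49) and TNFRSF10D (0.13) without control array 1. TNFRSF10C turned to 0.10 without recovery array 1, and TNFRSF10A (-0.25) and TNFRSF10B (0.05) turned without recovery array 2. Leaving out 1 array gave -0.65 to 0.26 for TNFSF10, -0.49 to 0.63 for TNFRSF10A, -0.53 to 0.05 for TNFRSF10B, -0.37 to 0.10 for TNFRSF10C and -0.31 to 0.13 for TNFRSF10D. The cause was not tested. All fits that left out an array or a group were run without the replicate block. In fits that leave out an array of a group compared, the lone array is taken to vary like the others. Leaving out an array of the group not compared gives the same fit as the 2 groups alone. Low signal limits FASLG, TNFRSF10C and the unstimulated levels of TNFSF10.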
